A study of Arabidopsis thaliana with 2 samples.

Results

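The genes described here are the beta-glucosidase gene PYK10 and 8 further Arabidopsis thaliana loci that were listed by locus number because of their part in ER bodies or as myrosinases. They are BGLU21 and BGLU22, the close relatives of PYK10, NAI1 and NAI2, which are needed to form ER bodies, the jacalin-related lectin genes PBP1 (AT3G16420) and JAL31 (AT3G16430), and the myrosinase genes TGG1 and TGG2. Of these 9 loci, 8 had a row among the 21825 loci of the table, and TGG2 (AT5G25980), which had none, was not analysed here. RNA-seq was done on whole seedlings of the Col ecotype, with 1 library of wild type and 1 of the ARF18 overexpression line 35SARF18-OE-2 (the overexpressor below), whose name gives the constitutive 35S promoter. The labels give an age of 7 days for both, and elsewhere 4 days in the dark before 7 days of white light, which leaves the harvest age unsettled. The overexpressor is a single line, and 1 library per genotype allows neither a test of genotype nor a check between replicates. Totals were 7059226 counts for wild type and 6824188 for the overexpressor.

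ER bodies are spindle-shaped compartments of the endoplasmic reticulum that Brassicaceae form in the epidermis of seedlings and in roots. They store beta-glucosidases, of which PYK10 is the main one in Arabidopsis, apart from the glucosides in the vacuole, so that enzyme and substrate meet when a cell is broken. NAI1 is a basic helix-loop-helix transcription factor that drives PYK10 and other ER body genes, NAI2 is an ER body protein, and PBP1 and JAL31 are lectins that bind PYK10 once tissue is damaged. TGG1 and TGG2 are the classical myrosinases of the shoot, made in myrosin cells and guard cells and stored in the vacuole, where they hydrolyse glucosinolates after wounding.

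The ER beta-glucosidases and the vacuolar myrosinases differ in how their coding sequences end, and these ends are shown because they mark the ER members apart from the TGG pair. PYK10 is known to carry an ER retention signal at its C terminus. Each line below holds the last 33 bases of the longest coding sequence of the locus, read from the TAIR10.1 genome in the direction of the gene, with the last 4 codons before the stop codon in capitals. They lie at chr3:2840657-2840689 (minus strand) for PYK10, chr1:24700110-24700142 (minus) for BGLU21, chr1:24706759-24706791 (minus) for BGLU22, chr5:9079678-9079710 (minus) for TGG1 and chr5:9075445-9075477 (plus) for TGG2.
PYK10: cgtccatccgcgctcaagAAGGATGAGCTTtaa
BGLU21: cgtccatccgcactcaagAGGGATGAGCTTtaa
BGLU22: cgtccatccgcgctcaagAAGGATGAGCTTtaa
TGG1: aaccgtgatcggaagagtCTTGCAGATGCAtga
TGG2: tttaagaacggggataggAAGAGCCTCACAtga

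The ends of PYK10 and BGLU22 were the same over all 33 bases, and the last 4 codons of TGG1 and of TGG2 were other than those of PYK10. Over the whole coding sequence, BGLU21 and BGLU22 were 93.3% identical over 1575 aligned bases, PYK10 was 84.0% identical to BGLU21 and 83.7% to BGLU22, and TGG1 was 61.4% identical to PYK10. TGG1 and TGG2 were 82.7% identical to each other, and PBP1 and JAL31 89.0%.

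PYK10 held more of the wild-type library than its relatives by a wide margin. It had 130637 counts in wild type against 105042 in the overexpressor. In RPKM, reads scaled to transcript length and library total, that was 10247 against 8523. PYK10 ranked first of all loci by RPKM in wild type and 3rd in the overexpressor. It took 1.85% of all counts in wild type (95% exact binomial interval 1.84 to 1.86) and 1.54% in the overexpressor (1.53 to 1.55). Its level was lower in the overexpressor, at a count ratio, scaled to the library totals, of 0.832 (95% exact conditional binomial interval 0.825 to 0.839). All such intervals cover counting error only, and not the spread between plants.

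With so many reads, small differences already lie outside a counting interval. Of 477 nuclear loci with 5000 or more counts over both libraries, 87.4% had a counting interval wholly above or below 1. The log2 ratio of PYK10, taken here and below as log2 of (RPKM + 1) in overexpression over wild type, was -0.27. Of those 477 loci, 18.4% had a lower log2 ratio than PYK10, and their middle 50% of ratios ran from -0.17 to 0.30. In the TAIR10.1 annotation PYK10 lies on the minus strand of chromosome 3 from 2840477 to 2843781 and has 13 exons, and its end overlaps the neighbouring AT3G09250. The strand setting of the counting is not given in the sources used here, and AT3G09250 had 40 counts in wild type against 51 in the overexpressor.

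**Figure D1:**
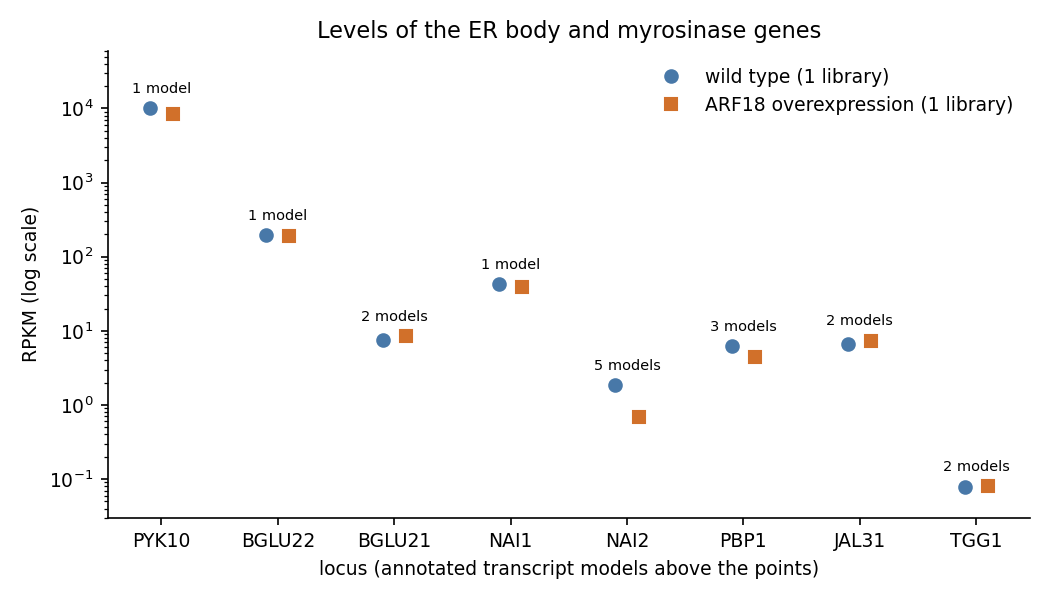
RPKM on a log scale of the 8 loci with a row, with 1 point per library and the number of transcript models in the reference annotation above each. PYK10 stands at 10247 and 8523, BGLU22 and NAI1 follow, and the 5 loci with several models lie below 10 RPKM in both libraries.

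The tandem pair BGLU21 and BGLU22, which encode ER beta-glucosidases like PYK10, had ratios nearer to 1. BGLU22, at chromosome 1 from 24706512 to 24709996, had 2609 counts in wild type against 2458 in the overexpressor, or 197.6 and 192.6 RPKM, a count ratio of 0.975 (0.922 to 1.03). BGLU21, from 24699868 to 24703166 also on the minus strand with 3345 bases between the genes, had 93 and 100 counts, or 7.57 and 8.42 RPKM, a ratio of 1.11 (0.830 to 1.49). Both intervals included 1. BGLU22 held 96.6% (95.8 to 97.2) of the counts of the pair in wild type and 96.1% (95.3 to 96.8) in the overexpressor. These intervals overlapped. BGLU21 has 2 transcript models in the reference and BGLU22 has 1, so the levels of the pair are not comparable within a library. PYK10 in turn held 98.0% (97.97 to 98.12) of the counts of PYK10 and BGLU22 together in wild type and 97.7% (97.62 to 97.80) in the overexpressor, and these intervals did not overlap. By RPKM, PYK10 stood 51.8 times above BGLU22 in wild type and 44.2 times in the overexpressor.

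Part of the sequence of BGLU21 and BGLU22 cannot tell them apart. Of the 50-base windows of the BGLU22 transcript, 4.92% also occurred in a BGLU21 transcript, and none of the PYK10 windows occurred in another locus. The longest identical run within a coding exon of the pair, 80 bases at chr1:24701621-24701700 (minus strand, TAIR10.1) in BGLU21, is shown because a read lying wholly inside it fits both genes.
BGLU21 and BGLU22: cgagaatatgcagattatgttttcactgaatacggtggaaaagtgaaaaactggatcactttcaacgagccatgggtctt

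NAI1, the regulator of the pathway, had 416 counts in wild type against 366 in the overexpressor, or 43.0 and 39.1 RPKM. Its count ratio of 0.910 (0.789 to 1.05) had an interval that included 1. The gene is at 9684562 to 9686613 of chromosome 2, plus strand. NAI2 had the lowest ratio of the 8 loci, with 34 counts in wild type and 12 in the overexpressor, or 1.87 and 0.683 RPKM. Its count ratio was 0.365 (0.172 to 0.723), 2.74-fold lower. Because the added 1 RPKM weighs on a gene at this level, its log2 ratio was -0.77, short of 2-fold, and -0.56 after adjustment for transcript length and GC content. In the authors' deposited table, NAI2 had a log2 ratio of -1.45 at an FDR of 0.0136, from a test on the reads of these libraries. It was the single member past 2-fold at an FDR of 0.05 or less there, where 0.761% of transcript models were called lower and 0.745% higher in the authors' deposited table.

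The reads of NAI2 were counted on a single model, AT3G15950.1, of a locus with 5 models in the reference, on the minus strand of chromosome 3 from 5397541 to 5402653. NAI2 was the single locus of the 9 with a CACGTG, the core of the G-box that many basic helix-loop-helix factors bind, within the 250 bases before the annotated start of the gene. The motif starts 86 bases before it, and is shown in capitals with 20 bases to either side, at chr3:5402714-5402759 (minus strand, TAIR10.1).
NAI2: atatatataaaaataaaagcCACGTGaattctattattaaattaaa

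CACGTG, which reads the same on both strands, was in 6.49% of 27443 windows of 250 bases before nuclear protein-coding genes. CANNTG, of which CACGTG is a case, was in 55.3% of them and, among the 9 loci, in NAI1, NAI2, TGG1 and TGG2. The letters TGTCTC, an auxin response element bound by ARF proteins, were on either strand of 10.9% of all windows and of none of the 9. The variant TGTCGG was in 4.16% of all windows and again in none of the 9. These matches describe letters within a short window and not binding.

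The lectin genes PBP1 and JAL31 stood at similar levels. PBP1, on chromosome 3 from 5579290 to 5581032, had 55 counts in wild type against 38 in the overexpressor, or 6.18 and 4.42 RPKM, a ratio of 0.715 (0.460 to 1.1). JAL31, 535 bases further on from 5581568 to 5583258, had 56 and 61 counts, or 6.54 and 7.38 RPKM, a ratio of 1.13 (0.771 to 1.65). Neither interval lay wholly to one side of 1. PBP1 held 49.5% (39.9 to 59.2) of the counts of the pair in wild type and 38.4% (28.8 to 48.7) in the overexpressor, with overlapping intervals. Of the 50-base windows, 3.50% of those of PBP1 occurred in JAL31 transcripts, so single values of the pair are uncertain.

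TGG1 had 1 count in each library, or 0.0772 and 0.0798 RPKM, and its count ratio of 1.03 (0.0132 to 81.2) sets no useful limit on a difference. TGG1 lies on the minus strand of chromosome 5 from 9079452 to 9082384. Other myrosinase genes were low as well. TGG5, a myrosinase gene of roots with a single model, had 17 counts in wild type against 25 in the overexpressor, or 1.41 and 2.14 RPKM, a ratio of 1.52 (0.789 to 3.0). TGG3, TGG4, TGG6 and the myrosinase-binding protein gene MBP2 had no row and were not analysed here. MBP1 had 1 count in wild type against 0 in the overexpressor.

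Markers of the cells that make TGG1 and TGG2 were also low in both libraries. Of 9 guard cell and myrosin cell markers, 7 had a row and 3 reached a mean of 1 RPKM (HT1, OST1 and GORK), and the summed level of the list was 4.90 RPKM in wild type and 4.66 in the overexpressor. FAMA, the regulator that defines both cell types, and KAT1 had no row. MYB60, KAT2, OST1, GORK and ICE1 have 3, 2, 2, 4 and 5 transcript models. Their low levels are therefore not comparable with those of loci with 1 model. HT1, with 1 model, had 11 counts in wild type against 8 in the overexpressor. The guard cell anion channel gene SLAC1, whose single model shares no 50-base window with another transcript, had 1 count in wild type against 0 in the overexpressor. Leaf markers were present in all 8 of 8 cases, with summed levels of 2237 and 2180 RPKM, as were 17 of 18 root markers, with 486.6 and 568.7 RPKM. TGG1 itself has 2 models, and the parts of cell make-up and of model number in its level were not tested. In whole seedlings, fewer cells of a type and less RNA per cell cannot be told apart.

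The members with 1 annotated transcript model stood above those with several. The 3 loci with 1 model, PYK10, BGLU22 and NAI1, had mean levels of 9385, 195.1 and 41.1 RPKM. The 5 with several models ranged from 0.0785 to 7.99 RPKM. Among them, BGLU21 and JAL31, with 2 models each, had 7.99 and 6.96 RPKM, PBP1 with 3 had 5.30 and NAI2 with 5 had 1.28. TGG1, with 2 models and 1 count in each library, was below all of these. Over all nuclear loci of the table with a reference entry, the median of the mean RPKM was 8.55 for 12287 loci with 1 model, 2.70 for 5244 with 2, 1.30 for 2104 with 3, 0.803 for 983 with 4 and 0.466 for 1031 with 5 or more. Against loci with as many models, BGLU21 stood at the 68.7th percentile, JAL31 at the 66.2nd, PBP1 at the 73.2nd, NAI2 at the 69.7th and TGG1 at the 5.26th. PYK10, BGLU22 and NAI1 stood at the 99.99th, 94.8th and 79.6th.

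Where the models of a locus share exons, the share of its windows found in 1 transcript model alone is low by construction. In the members with several models, 77.7% (JAL31) to 93.0% (NAI2) of windows were shared between models of the same locus. All 50-base windows of PYK10 and of NAI1 were found in 1 model, and 95.1% of those of BGLU22. For the loci with several models the share was 17.6% in BGLU21, 16.0% in PBP1, 22.3% in JAL31, 8.30% in TGG1 and 7.03% in NAI2. The detected models of PBP1 and TGG1 each matched a reference model by length, and 53 and 52 of their windows, 4.37% and 2.91%, were found in no other model. How the authors counted reads that fit several models is not given in the sources used here, and the part of model number in these levels was not tested. Levels of the 5 loci with several models are therefore not comparable with those of PYK10, BGLU22 and NAI1, while the ratio between the libraries sets each locus against itself. The detected models of BGLU21, BGLU22, NAI1, NAI2 and JAL31 matched no reference model by length, so the annotations differ at these loci. The reference annotation may also hold models that the authors' annotation did not.

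**Figure D2:**
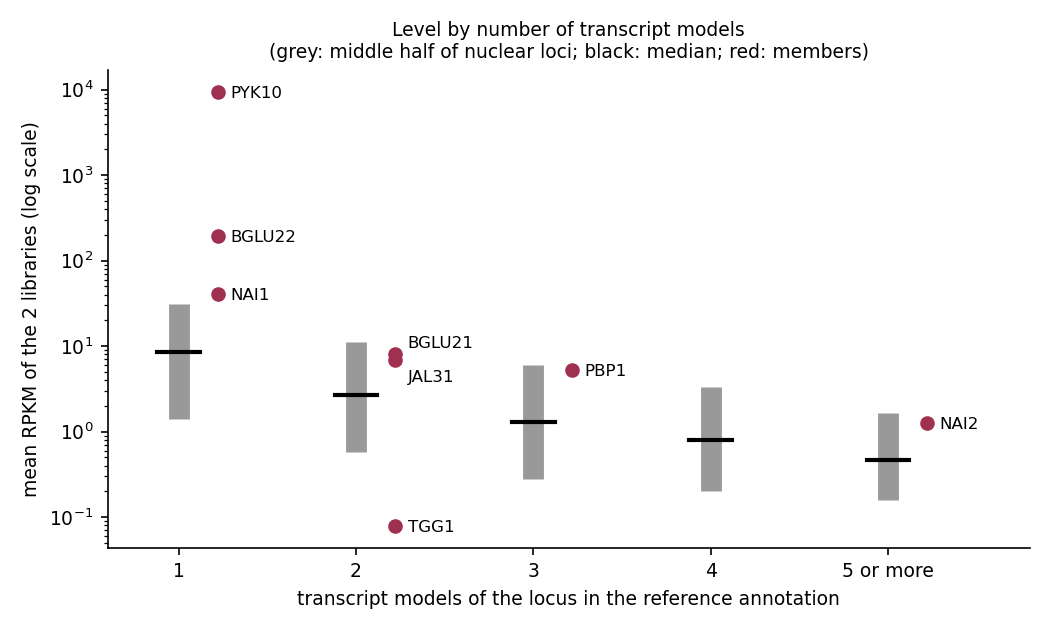
Mean RPKM of both libraries (log scale) against the number of transcript models in the reference annotation. Grey bars span the middle 50% of nuclear loci, black lines are their medians, which fall from 8.55 to 0.466 RPKM, and red points are the 8 loci described here.

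Set side by side, the members showed no common direction. Of the 7 with a mean of 1 RPKM or more, none was 2-fold higher or lower on the log2 (RPKM + 1) scale, where 1.25% and 0.663% of 15083 expressed nuclear loci were. None had a counting interval above 1 (18.7% of expressed loci), and PYK10 and NAI2 had one below 1 (15.6%). NAI2 reached the mean of 1 RPKM only through wild type, at 1.87 RPKM against 0.683 in the overexpressor. NAI2 did pass 2-fold by its count ratio of 0.365, and with 0.1 RPKM added in place of 1. Adjusted for length and GC content, the interval of PBP1 also lay below 1, at 0.647 (0.416 to 0.996). Shares over expressed loci were not computed for these alternatives. The median log2 ratio of the 7 was -0.13, against 0.03 over expressed loci, and 5 of 7 were negative, where 46.2% of expressed loci were. All 8 loci together took 1.90% of counts in wild type and 1.58% in the overexpressor, of which PYK10 made up nearly all. Without PYK10 the shares were 0.0462% (0.0447 to 0.0479) and 0.0445% (0.0429 to 0.0461), which overlap. ARF18 itself was at 97 counts in wild type and 472 in the overexpressor, a ratio of 5.03 (4.04 to 6.33), as its label has it.

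**Figure D3:**
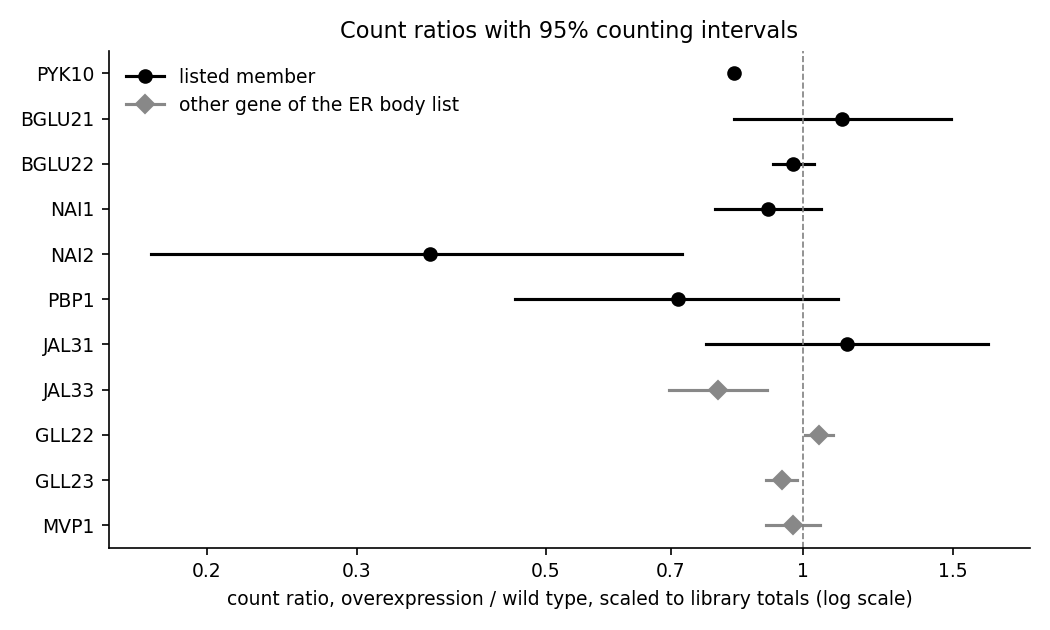
Count ratios (log scale) of the 11 expressed genes of the ER body list, with 95% exact conditional binomial intervals for counting error. PYK10 at 0.832 has an interval narrower than its symbol, NAI2 at 0.365 lies farthest from 1, and 5 of the 7 members have intervals that include 1.

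Of the 17 genes of the wider ER body list, 16 had a row and 11 were expressed. The counting interval lay above 1 for 1 of the 11 (18.7% of expressed loci) and below 1 for 4 (15.6%). Beside PYK10 and NAI2, the lower ones were JAL33, a lectin gene at 519 counts in wild type and 399 in the overexpressor (ratio 0.795, 0.696 to 0.908), and GLL23, a GDSL lipase-like gene of the PYK10 complex at 4586 and 4190 (0.945, 0.906 to 0.986). GLL22, its relative, had the interval above 1, at 5317 and 5372 counts (1.05, 1.01 to 1.09). The median count ratio over expressed loci was 1.03, which lies within that interval. MVP1, a related gene that acts in ER organisation, had 1496 and 1410 counts (0.975, 0.906 to 1.05). MEB1 and MEB2, membrane proteins of ER bodies, had 7 and 2 counts in wild type and 3 and 0 in the overexpressor. TSA1, a relative of NAI2, had 1 count in each, and BGLU18, the enzyme of wound-induced ER bodies, had no row. MEB1, MEB2 and TSA1 have 4, 2 and 2 transcript models, so their levels are not comparable with those of loci with 1 model. The median log2 ratio of the 11 genes was -0.08, or -0.19 adjusted for length and GC content. The 11 include the 7 expressed members. Without members, 4 genes were expressed, 1 with an interval above 1 (18.7% of expressed loci) and 2 below (15.6%). Their median log2 ratio was -0.06, or -0.16 adjusted.

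Loci of the jacalin-domain cluster around PBP1 went both ways. Of 9 loci, 8 were expressed, 2 with counting intervals above 1 (18.7% of expressed loci) and 3 below (15.6%). Their median log2 ratio was -0.09, or -0.14 adjusted for length and GC content. Over all 9 loci, with no filter on low values, it was 0.02. JAL32 was the highest, with 89 counts in wild type and 171 in the overexpressor, a ratio of 1.99 (1.53 to 2.60). The nitrile specifier gene NSP3 was also higher, at 131 and 177 counts (1.40, 1.11 to 1.77). NSP1, whose product directs glucosinolate breakdown to nitriles, was lower, at 212 and 148 counts (0.722, 0.581 to 0.895), as was JAL34 at 314 and 213 (0.702, 0.587 to 0.838) and JAL33. NSP4 had 399 and 431 counts (1.12, 0.973 to 1.28), and JAL35, a jasmonate-responsive lectin gene, 5 counts in each library. The reads of neighbours with shared domains may be split between loci, and 7 of the 8 expressed loci had several models.

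**Figure D4:**
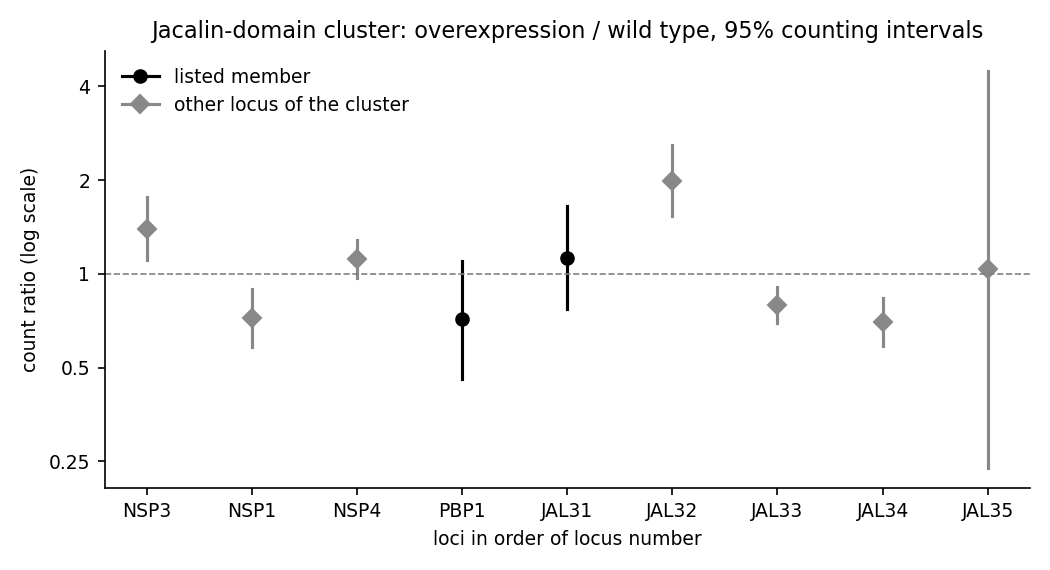
Count ratios (log scale) of the 9 loci of the jacalin-domain cluster in order of locus number, with 95% counting intervals. JAL32 at 1.99 and NSP3 at 1.40 lie above 1, and NSP1, JAL33 and JAL34 between 0.702 and 0.795 lie below it.

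Enzymes and proteins that act beside the members were mostly higher where they differed beyond counting error. Of 13 further beta-glucosidase genes, 6 had a row and 3 were expressed. PEN2, the atypical myrosinase of indole glucosinolate defence, had 1143 counts in wild type against 1245 in the overexpressor (1.13, 1.04 to 1.22). BGLU25 had 267 and 247 (0.957, 0.802 to 1.14) and BGLU24 16 and 9 (0.582, 0.227 to 1.40). Of 8 expressed genes of glucosinolate hydrolysis, 4 had intervals above 1 (18.7% of expressed loci) and 1 below (15.6%), with a median log2 ratio of 0.16. The list shares NSP1, the lower one, and NSP3 and NSP4 with the jacalin cluster, and PEN2 with the beta-glucosidases. NSP5, another nitrile specifier gene, had 2076 and 2201 counts (1.1, 1.03 to 1.17). The nitrilase gene NIT3 had 641 and 743 counts (1.20, 1.08 to 1.34), and ESM1, which shifts hydrolysis away from nitriles, 19 and 22 (1.20, 0.619 to 2.34).

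General ER folding genes went both ways. Of 10 expressed ER chaperone genes, intervals lay above 1 for 5 (18.7% of expressed loci) and below 1 for 2 (15.6%), with a median log2 ratio of 0.17, or 0.11 adjusted for transcript length and GC content. The lower ones were the binding protein genes BIP2, with 386 counts in wild type against 313 in the overexpressor (0.839, 0.720 to 0.976), close to the ratio of PYK10, and BIP1, with 3211 and 2783 (0.897, 0.852 to 0.944). Adjusted for length and GC content, the log2 ratio of BIP2 went from -0.24 to -0.04 and that of BIP1 from -0.16 to -0.0042. The protein disulfide isomerase gene PDIL1-1 had 776 counts in wild type against 1114 in the overexpressor (1.49, 1.35 to 1.63). ERD2, a receptor that returns proteins with the ER retention signal, had 480 and 570 (1.23, 1.09 to 1.39), and the calreticulin gene CRT1a 271 and 312 (1.19, 1.01 to 1.41). ERO1, which oxidises disulfide isomerases, had 23 and 38 counts (1.71, 0.992 to 3.0).

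Genes of jasmonate, the hormone that induces ER bodies in wounded leaves, were lower beyond counting error in 4 of 5 expressed cases. The interval lay below 1 for those 4 (15.6% of expressed loci) and above 1 for none, and the median log2 ratio was -0.45, or -0.31 adjusted for length and GC content. With no filter on low values the median over all 11 genes was -0.21. MYC3 had 614 counts in wild type against 332 in the overexpressor (0.559, 0.488 to 0.640), MYC4 301 and 164 (0.564, 0.463 to 0.684) and MYC2 563 and 395 (0.726, 0.637 to 0.827). These are the basic helix-loop-helix factors of jasmonate response. AOS, an enzyme of jasmonate synthesis, had 603 and 492 counts (0.844, 0.748 to 0.952). The jasmonate receptor gene COI1 had 422 and 382 (0.936, 0.813 to 1.08). Of the genes below the filter, JAZ1 was at 4 counts in wild type against 6 in the overexpressor, JAZ10 at 0 and 3, and OPR3, another enzyme of the synthesis, at 6 and 11. The response genes VSP1, VSP2 and LOX2 had at most 4 counts in either library, so the output of the pathway could not be read. All jasmonate genes below the filter have several transcript models and the expressed ones have 1 each, so their levels are not comparable.

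Root and leaf markers moved unequally beside these results. Of 17 expressed root markers, the interval lay above 1 for 8 (18.7% of expressed loci) and below 1 for 4 (15.6%). Their median log2 ratio was 0.31, or 0.21 adjusted for length and GC content. WER, 1 of the 8, reached the mean of 1 RPKM only through the overexpressor, at 0.868 RPKM in wild type against 2.69. By log2 ratio, those farthest above were the tonoplast channel gene TIP2;3 with 49 and 130 counts (2.74, 1.96 to 3.89), WOX5 of the root stem cell niche with 16 and 40 (2.59, 1.42 to 4.95), WER of the root epidermis with 5 and 15 (3.10, 1.07 to 10.9) and the Casparian strip gene CASP1 with 534 and 927 (1.80, 1.61 to 2.0). The lower ones were SCR of the endodermis with 609 and 378 counts (0.642, 0.563 to 0.731), the phosphate exporter gene PHO1 with 2024 and 1501 (0.767, 0.717 to 0.821), the root hair gene COBL9 with 203 and 153 (0.780, 0.628 to 0.966) and the nitrate transporter gene NRT2.1 with 172 and 130 (0.782, 0.618 to 0.988). Of 8 leaf markers, the interval lay above 1 for 1 (18.7% of expressed loci) and below 1 for 5 (15.6%). Their median was -0.11, or -0.06 adjusted for length and GC content. The glycine decarboxylase gene GLDP1 had a ratio of 0.747 (0.642 to 0.869), the aldolase gene FBA2 0.828 (0.718 to 0.953) and the Rubisco small subunit gene RBCS1A 1.20 (1.15 to 1.26). Adjusted for length and GC content, the log2 ratio of GLDP1 went from -0.39 to -0.02 and that of RBCS1A from 0.26 to 0.03. PYK10, an abundant gene of roots and hypocotyls, was lower, while more of these root markers were higher than lower, and the part of organ make-up in its level was not tested.

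**Figure D5:**
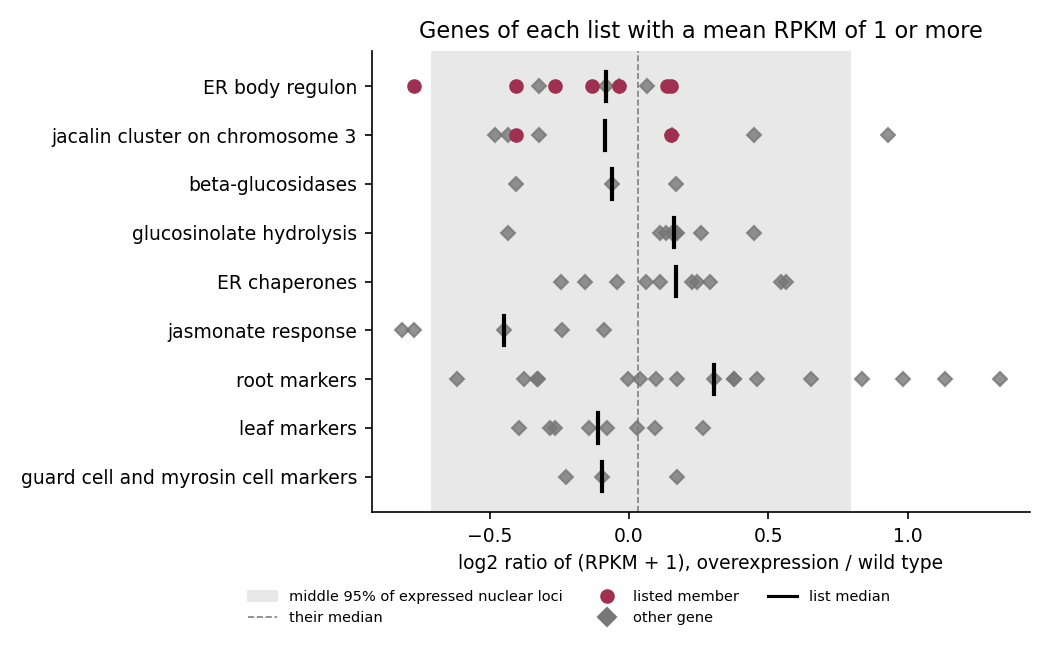
The log2 ratio of (RPKM + 1) for each gene of 9 lists with a mean of 1 RPKM or more, with members in red and list medians as black lines. The grey band spans the middle 95% of expressed nuclear loci, from -0.71 to 0.79; NAI2, MYC3 and MYC4 lie below it, and JAL32 and 4 root markers above it.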

How the data were processed

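For each transcript model the authors deposited a raw count and an RPKM value in each of 2 libraries, with the genome build TAIR 10 per the submitters' processing notes. Aligner, counting program, strand and read length were not given in the sources used here. Log2 ratio, p-value and FDR columns are the authors' deposited values from reads of the 2 libraries. RPKM recomputed from counts matched within 3.23e-06 percent. Counts of 0, deposited as an RPKM of 0.01, were set to 0. Counts and RPKM were summed over the models of a locus. Expressed loci are nuclear with a mean of 1 RPKM or more. Intervals of 95% for ratios and shares are exact (Clopper-Pearson). The adjustment subtracted median log2 ratios of 50 bins of transcript length, then of GC content. Symbols, models, windows and sequences came from NCBI RefSeq TAIR10.1, which held 21649 of the 21825 loci. Windows of 50 bases were compared on the transcript strand. The ratio intervals and the 2-fold threshold were tested on simulated counts with counting error only, and the other steps were not. The members and lists were chosen with earlier results of these data known. Genes named are the members, the loci of 4 related lists and the nearest expressed neighbours. From each other list, up to 4 genes were named by absolute log2 ratio. BIP1, BIP2, COI1, the 4 lower root markers, FAMA, KAT1, SLAC1 and the jasmonate genes under 1 RPKM were chosen after their values were seen. NSP5, MYB60, KAT2 and ICE1 were also named outside this rule. Alternatives covered pseudocount, scaling, thresholds, filter and model choice. Python 3.11.15, numpy 2.4.6, pandas 2.3.3, scipy 1.17.1, matplotlib 3.10.9 and Biopython 1.88 were used.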

Additional observations from a re-analysis of the deposited data

How the results depend on the processing

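No paired analysis was possible because neither group holds a second sample. The log2 ratio of PYK10, -0.27, stayed negative under each alternative, at -0.30 with TMM scaling (-0.296) and with median-centring (-0.299), and at -0.25 adjusted for transcript length and GC content. The count of members at least 2-fold lower went from 0 to 1, NAI2, with a pseudocount of 0.1 RPKM, at a threshold of 1.5-fold, and in the authors' deposited calls. The count of members with a counting interval below 1 went from 2 to 3, with PBP1, when adjusted for transcript length and GC content. Under the same adjustment BGLU22 went from -0.04 to 0.07 on the log2 scale. Shares of expressed loci were not computed for the other pseudocount, the 1.5-fold threshold or the adjustment, so these counts stand without a background. The count at least 2-fold higher stayed 0 under these alternatives. Depth limits NAI2, PBP1, JAL31, BGLU21 and TGG1, each with at most 100 counts per library.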

Other observations

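The nearest expressed genes on either side of the members give their surroundings. Beside PYK10, the glutathione transferase gene GSTU8, 4402 bases away, had 807 counts in wild type against 951 in the overexpressor. Its count ratio of 1.22 (1.11 to 1.34) went opposite to that of PYK10. Adjusted for length and GC content, the log2 ratio of GSTU8 went from 0.28 to 0.07. Beside NAI1, PMDH1, a peroxisomal malate dehydrogenase gene 2682 bases away, had 1019 and 961 counts (0.976, 0.892 to 1.07), and WAVH1 619 and 425 (0.710, 0.626 to 0.805). On either side of NAI2, AT3G15920 had 59 and 38 counts (0.666, 0.431 to 1.02) and AT3G15970 205 and 172 (0.868, 0.705 to 1.07), both with intervals that included 1. Beside the BGLU pair, AT1G66260 had 13 and 11 counts (0.875, 0.355 to 2.12), and the ethylene receptor gene ETR1 281 and 258 (0.950, 0.799 to 1.13). Next to the TGG pair, AT5G25940 had 288 and 360 counts (1.29, 1.1 to 1.52) and AT5G26010 120 and 147 (1.27, 0.989 to 1.63). With the same adjustment the log2 ratio of AT5G25940 went from 0.37 to 0.04, and that of AT5G26010 from 0.32 to 0.19.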
